A study of Mus musculus with 6 samples.

Results

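T cell checkpoint ligands, the surface and secreted proteins through which an antigen-presenting cell or tumour cell restrains or assists a T cell, were examined as transcripts in bone marrow-derived macrophages (BMDMs). The group was fixed as 10 gene symbols (Cd274, Pdcd1lg2, Cd80, Cd86, Havcr2, Lgals9, Vsir, Icosl, Cd276 and Cd47), and all 10 were found among the 54532 genes of the deposited table. BMDMs, which the study's methods describe as marrow monocytes of C57BL/6 mice kept in culture, were co-cultured with ID8, an ovarian cancer cell line of the mouse. In 3 libraries the tumour cells had first been exposed to cisplatin (40 µM), which crosslinks DNA, in the other 3 to PBS, and poly-T selected RNA of the BMDMs was sequenced. No allele or further agent distinguished the groups, and every library came from a co-culture, so that no BMDMs cultured alone were compared here. The study's methods speak of biological replicates, but whether these were separate cultures or separate animals is not given in the sources used here, and p-values measure only the spread between these libraries. Values are FPKM, the fragments per kilobase of gene length and per 1000000 reads, a scale on which the levels of different genes can be compared.

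Many of these genes encode proteins that act in pairs across the contact between a myeloid cell and a T cell. Cd274 and Pdcd1lg2 encode PD-L1 and PD-L2, the ligands of the inhibitory receptor PD-1, while Cd80 and Cd86 encode the B7 proteins that activate T cells through CD28 and inhibit them through CTLA-4. Icosl encodes the ligand of the costimulatory receptor ICOS. Havcr2 encodes TIM-3, an inhibitory receptor carried by exhausted T cells and by myeloid cells, and Lgals9 encodes galectin-9, a lectin that binds it. Vsir encodes VISTA, an inhibitory B7-like protein of myeloid cells, Cd276 encodes B7-H3, which is carried by many tumour and stromal cells, and Cd47 encodes the signal by which a cell resists being engulfed by macrophages that carry SIRPα. Transcription of Cd274 in macrophages is known to respond to interferons through JAK kinases, STAT proteins and IRF1.

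The libraries held between 15776238 and 17924686 reads, as recovered from the FPKM values, and 13441 genes were tested. Libraries of the same group correlated with r between 0.984 and 0.989 on log2(FPKM + 1), and no library stood apart from its group. The label BMDM was checked against 12 macrophage markers, all of them detected, whose summed level ranged from 1816 to 1838 FPKM with PBS and from 4549 to 4728 FPKM with cisplatin. The 11 markers tested had a median log2 fold change of 0.92, the largest being that of Lyz2 (1.57), named after its values were seen. When libraries were scaled to an equal geometric mean of 4 Y-linked genes, 7 of the 11 changed sign, while Lyz2 stayed above 0 at 0.58. Among those 7 was Csf1r, the receptor for the macrophage growth factor CSF-1, whose log2 fold change of 0.92 (limma, adjusted p = 9.23e-07) became -0.057. The summed level of 18 ID8 and mesothelial markers ran the other way, from 1369 to 1470 FPKM with PBS and from 265 to 283 FPKM with cisplatin, with none of the 18 at 0 in every library. That of 6 B cell markers was 221 to 229 against 482 to 489 FPKM, that of 11 dendritic cell markers 123 to 142 against 193 to 214 FPKM, and that of 11 granulocyte and progenitor markers 4649 to 4801 against 8347 to 8621 FPKM. For 12 T and NK cell markers it was 15.99 to 18.2 against 21.6 to 23.5 FPKM. The 4 Y-linked genes summed to between 19.5 and 22.7 FPKM with PBS and between 41.6 and 42.8 FPKM with cisplatin, and Xist, the transcript of the inactive X chromosome, lay between 39.0 and 48.8 FPKM and between 7.57 and 7.94 FPKM. At the deposited scaling, marker sums of every cell type examined thus differed between the groups. The sums were not retaken with scaling by the Y-linked genes, under which 3 of the 11 granulocyte and progenitor markers changed sign. In such bulk samples fewer cells of a type and less RNA per cell cannot be told apart. The part of these cell types in the results below was not tested.

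With cisplatin-pretreated ID8 cells, the costimulatory B7 genes Cd80 and Cd86 were more than 2-fold higher, while the galectin-9 gene Lgals9 and the B7-H3 gene Cd276 were more than 2-fold lower. These 2 rises and 2 falls were the members past both thresholds, namely an adjusted p below 0.05 together with a change of 1 or more in size on the log2 scale. Of all tested genes, 4.67% were called higher, 11.3% lower and 15.9% in either direction, beside 2, 2 and 4 of the 10 members. At the adjusted p alone, the level at which rose and fell are used here, 5 members rose (Cd80, Cd86, Havcr2, Pdcd1lg2 and Icosl) and 4 fell (Cd276, Lgals9, Cd47 and Cd274), but these counts depended on the scaling. When libraries were scaled to an equal geometric mean of the 4 Y-linked genes, 1 member rose (Cd80) and 7 fell, Pdcd1lg2 and Icosl among them. Cd86 and Havcr2 then did not pass the test. Under that scaling 0 members were past both thresholds upwards and 5 downwards, beside 85 and 5181 of the 13441 tested genes. The share of all genes at the adjusted p alone was not taken under it. At the deposited scaling, 32.9% of all tested genes rose and 35.1% fell at the adjusted p alone, 68% in either direction, beside 9 of the 10 members. In 9 of the 10 members no library of one group reached into the range of the other, which held for 72.4% of tested genes, and the exception was Vsir. The median log2 fold change of the members was 0.090, and that of all tested genes -0.0011. These p-values come from limma across all 13441 genes, with Benjamini-Hochberg adjustment.

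**Figure D1:**
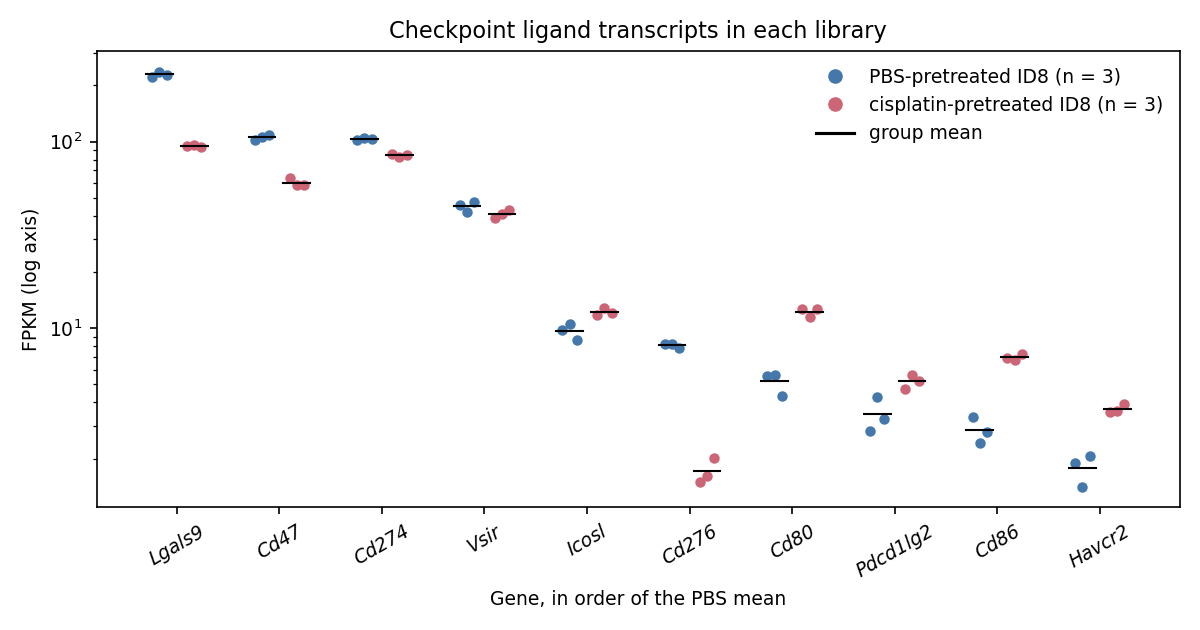
Level of each of the 10 checkpoint ligand transcripts in FPKM on a log axis, with 1 point per library (3 PBS in blue, 3 cisplatin in red) and a bar at each group mean. Lgals9, Cd47 and Cd274 lie highest in both groups, the points of Cd276 drop from about 8 FPKM to below 2.1 FPKM, and the groups overlap only for Vsir.

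Most of the summed level came from 4 genes. In the PBS libraries Lgals9 was highest, with a mean of 229 FPKM, followed by Cd47 with 106 FPKM and Cd274 with 103 FPKM, whose libraries overlapped, and then by Vsir with 44.96 FPKM. The remaining 6 lay below 11 FPKM in every PBS library, in the order Icosl, Cd276, Cd80, Pdcd1lg2, Cd86 and Havcr2, of which Pdcd1lg2 and Cd86 overlapped. In the cisplatin libraries Cd274 stood apart above Cd47, Cd80 and Icosl overlapped with means of 12.3 and 12.2 FPKM, and Cd276 went from the sixth place to the last. Summed over the 10 genes, the level was 503 to 523 FPKM with PBS and 320 to 324 FPKM with cisplatin. Of that sum Lgals9 made up 44.6% ± 0.77 with PBS and 29.5% ± 0.41 with cisplatin (SD, n = 3 each), and Cd274 made up 20.1% ± 0.16 and 26.2% ± 0.18.

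The ligands of PD-1 moved in opposite directions. Cd274 (ENSMUSG00000016496, chromosome 19, 29367455 to 29388095, plus strand) was at 102, 104 and 104 FPKM in the PBS libraries and at 85.3, 83.1 and 84.7 FPKM in the cisplatin libraries. The groups did not overlap, and the cisplatin mean was 1.23-fold lower (log2 fold change -0.29, SE 0.029, limma, adjusted p = 0.000117), short of the fold threshold. With scaling by the Y-linked genes Cd274 was past it, at -1.28 (adjusted p = 8.11e-07). Pdcd1lg2 (ENSMUSG00000016498, chromosome 19, 29410919 to 29471157, plus strand), which starts 22823 bases after the end of Cd274 on the same strand, was at 2.82, 4.29 and 3.25 FPKM with PBS and at 4.72, 5.63 and 5.23 FPKM with cisplatin. All cisplatin libraries lay above the PBS libraries, by a narrow margin over PBS replicate 2, and the values rested on 82 to 152 reads per library. Its mean was 1.503-fold higher. Adding 1 before taking logarithms shrinks the change of weakly expressed genes, and on that scale the log2 fold change of Pdcd1lg2 was 0.49 (SE 0.13, limma, adjusted p = 0.0124), and it was -0.32 with scaling by the Y-linked genes, where the median of all genes was -0.83. In each library Cd274 was far above its neighbour. The ratio of Cd274 to Pdcd1lg2 was 36.3, 24.3 and 31.9 with PBS and 18.1, 14.8 and 16.2 with cisplatin, a comparison within a library that no scaling factor of that library can alter.

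Cd80 and Cd86 rose together. Cd80 (ENSMUSG00000075122, chromosome 16, 38455561 to 38496335, plus strand) was at 5.57, 5.63 and 4.34 FPKM with PBS and at 12.7, 11.4 and 12.6 FPKM with cisplatin. The lowest cisplatin library was thus about 2-fold above the highest PBS library, the ratio of the means being 2.37 and the log2 fold change 1.11 (SE 0.096, limma, adjusted p = 5.49e-05). Cd86 (ENSMUSG00000022901, chromosome 16, 36603869 to 36666081, minus strand) was at 3.33, 2.44 and 2.77 FPKM with PBS and at 6.95, 6.79 and 7.23 FPKM with cisplatin, again without overlap. Its ratio of means was 2.46 and its log2 fold change 1.06 (SE 0.091, adjusted p = 5.26e-05). Without PBS replicate 2 the log2 fold change of Cd86 was 0.98, just short of the fold threshold, which left Cd80 as the only member called higher. With scaling by the Y-linked genes both stayed above 0, at 0.22 and 0.25, and Cd86 was short of the adjusted p threshold (adjusted p = 0.0633). The ratio of Cd80 to Cd86 overlapped between the groups, with a mean of 1.85 ± 0.40 in the PBS libraries and 1.75 ± 0.073 in the cisplatin libraries (SD, n = 3 each). B cells and dendritic cells are known to carry both proteins. At the deposited scaling the marker sums of both cell types were higher in the cisplatin libraries, as given above. All 6 B cell markers rose, where 32.9% of all tested genes did, and 2 of the 6 changed sign with scaling by the Y-linked genes. The dendritic sum was mostly Cst3, which macrophages also express (103 to 119 FPKM with PBS and 134 to 153 FPKM with cisplatin). Of the 8 dendritic markers tested 7 rose (1 of the 8 changed sign under that scaling), again beside 32.9% of all tested genes. Past both thresholds upwards were 5 of the 8, where 4.67% of all tested genes were. These were Ccl22 (log2 fold change 2.55), Siglech (1.99), Batf3 (1.06), Flt3 (1.02) and Ccr7 (1.004), named after their values were seen. Under that scaling Ccl22 (1.80) and Siglech (1.21) stayed past both thresholds, Batf3 (0.62) and Flt3 (0.50) passed the adjusted p alone, and Ccr7 was at 0.054 (adjusted p = 0.558). The dendritic factor Zbtb46, named likewise, fell (log2 fold change -0.69, adjusted p = 0.000390), and Xcr1 and Clec9a stayed below 1 FPKM in every library.

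**Figure D2:**
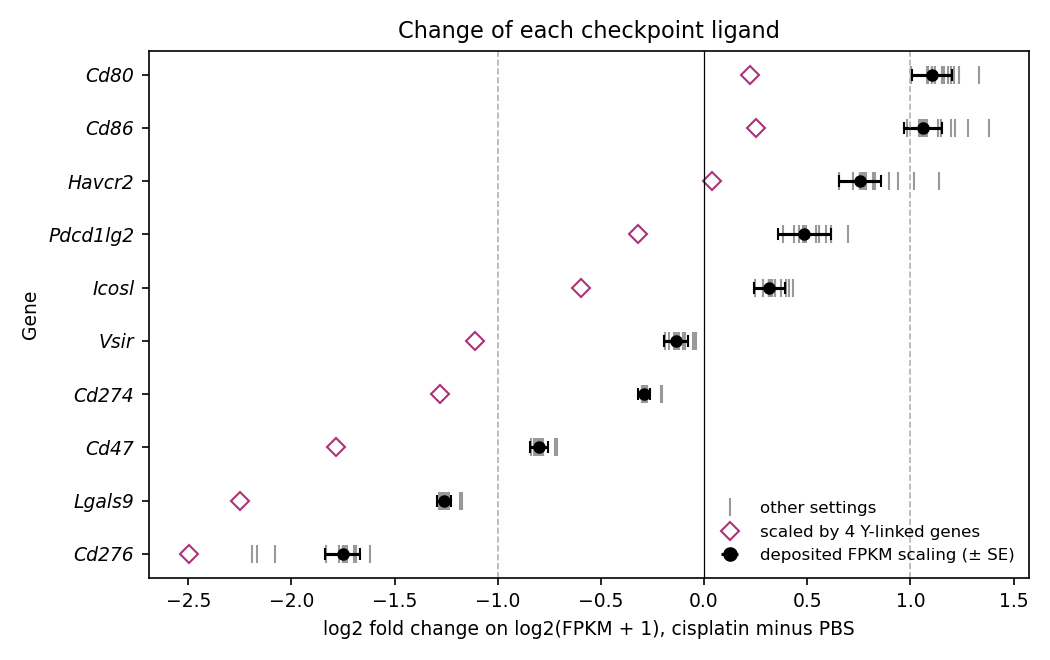
Log2 fold change of each member, cisplatin minus PBS, on the log2(FPKM + 1) scale. Black points with bars give the estimate ± SE at the deposited scaling, grey ticks the other 17 settings (16 for Pdcd1lg2 and Havcr2, which a filter of 5 FPKM removed), open diamonds the scaling by 4 Y-linked genes, and dashed lines the fold threshold of 1. Every diamond lies to the left of its point, and those of Pdcd1lg2 (-0.32) and Icosl (-0.60) fall on the other side of 0.

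Icosl changed less than the CD28 ligands. The ICOS ligand gene Icosl (ENSMUSG00000000732, chromosome 10, 78069302 to 78083913, plus strand) was at 9.80, 10.5 and 8.63 FPKM with PBS and at 11.8, 12.8 and 12.1 FPKM with cisplatin. The groups did not overlap, and the log2 fold change of 0.32 (SE 0.074, limma, adjusted p = 0.00727) was short of the fold threshold. With scaling by the Y-linked genes it was -0.60, still 0.24 above the median of all genes under that scaling.

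Lgals9, the most abundant member, and Havcr2, the least abundant with PBS, also diverged. Lgals9 (ENSMUSG00000001123, chromosome 11, 78962974 to 78984946, minus strand) was at 221, 237 and 229 FPKM with PBS and at 95.2, 95.9 and 94.1 FPKM with cisplatin. The cisplatin libraries were within 2 FPKM of each other and far below the lowest PBS library, the mean being 2.41-fold lower (log2 fold change -1.26, SE 0.035, limma, adjusted p = 2.74e-07). Havcr2 (ENSMUSG00000020399, chromosome 11, 46454935 to 46481255, plus strand) was at 1.89, 1.42 and 2.06 FPKM with PBS and at 3.57, 3.58 and 3.92 FPKM with cisplatin. The groups lay apart, with a ratio of means of 2.06, on 60 to 176 reads per library. Its log2 fold change was 0.76 (SE 0.10, adjusted p = 0.000560) with a pseudocount of 1 and passed the fold threshold at 1.02 with a pseudocount of 0.1 and at 1.14 with limma voom on the recovered reads. With scaling by the Y-linked genes it was 0.039 and no longer passed the test (adjusted p = 0.794). Within a library, the ratio of Lgals9 to Havcr2 was 117, 168 and 111 with PBS and 26.7, 26.8 and 24.0 with cisplatin.

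The 250 bases before the RefSeq start of this lectin and its receptor are shown, since the pair changed in opposite directions and since Lgals9 was the member whose window held an interferon motif. Both are on GRCm38.p6, on chr11:78984925-78985174 (minus strand) and chr11:46454681-46454930 (plus strand), and capitals mark the motif.
Lgals9: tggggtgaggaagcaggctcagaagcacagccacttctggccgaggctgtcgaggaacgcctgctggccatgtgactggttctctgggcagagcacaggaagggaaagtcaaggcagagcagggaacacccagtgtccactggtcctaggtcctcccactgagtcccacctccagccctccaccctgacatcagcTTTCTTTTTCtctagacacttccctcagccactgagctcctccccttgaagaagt
Havcr2: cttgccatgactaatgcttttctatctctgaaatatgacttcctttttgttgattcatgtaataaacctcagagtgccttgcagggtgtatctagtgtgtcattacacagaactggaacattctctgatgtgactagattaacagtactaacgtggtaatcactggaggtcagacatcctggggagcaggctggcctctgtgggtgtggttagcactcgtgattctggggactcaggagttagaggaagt
The capitals read on the opposite strand as the interferon-stimulated response element (GAAA, any 2 bases, GAAA) and lie 55 to 46 bases before the start. RefSeq windows were matched for 9 of the 10 members (not Cd86), and this was the single match among them to that motif, to the interferon gamma activated site (TTC, any 3 bases, GAA) or to the NF-κB motif (GGG, any 3 bases, TTCC), each searched on both strands. Of all 32851 windows, 2.98%, 7.02% and 4.65% held them. The members' windows were not alike in position. Annotated exons covered 250 of the 250 bases for Cd276 and 185 for Cd274. The RefSeq start lay 3372 bases from the gene start of the deposited table for Cd80, and 55121 or 55128 bases from it for Cd47. A match in letters is a description and not a bound site.

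Vsir did not pass the test, and Cd276 changed most. Vsir (ENSMUSG00000020101, chromosome 10, 60346851 to 60372684, plus strand) was at 45.5, 41.7 and 47.7 FPKM with PBS and at 38.9, 40.7 and 42.8 FPKM with cisplatin. The groups overlapped through PBS replicate 2, and the log2 fold change of -0.14 (SE 0.060) missed the threshold (limma, adjusted p = 0.0832), but passed it without that library (adjusted p = 0.0222). With scaling by the Y-linked genes Vsir was past both thresholds, at -1.11 (adjusted p = 2.30e-05). Cd276 (ENSMUSG00000035914, chromosome 9, 58524298 to 58555437, minus strand) was at 8.19, 8.25 and 7.86 FPKM with PBS and at 1.49, 1.61 and 2.02 FPKM with cisplatin. Its mean was 4.74-fold lower with cisplatin and its log2 fold change was -1.75 (SE 0.083, limma, adjusted p = 2.91e-06), on 93 to 530 reads. Krt19, a keratin of ID8 cells, moved the same way, from 603, 554 and 605 FPKM with PBS to 46.8, 54.0 and 52.5 FPKM with cisplatin. In the table's annotation Vsir and Cd276 each overlap 1 other gene, neither of which exceeded 0.473 FPKM in any library.

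Cd47 fell while the gene of its receptor rose. Cd47 (ENSMUSG00000055447, chromosome 16, 49800533 to 49915010, plus strand) was at 103, 106 and 108 FPKM with PBS and at 63.7, 58.8 and 58.4 FPKM with cisplatin. Every cisplatin library lay well below every PBS library, and the log2 fold change of -0.80 (SE 0.044, limma, adjusted p = 6.28e-06) was short of the fold threshold. Sirpa, which encodes the macrophage receptor SIRPα, was at 54.2, 54.8 and 54.1 FPKM with PBS and at 131, 131 and 133 FPKM with cisplatin (log2 fold change 1.26, SE 0.028, adjusted p = 1.24e-07). The direction of both held with scaling by the Y-linked genes, at -1.79 and 0.27. In the PBS libraries Cd47 was the higher of the pair, with ratios of 1.89, 1.94 and 2.0, and in the cisplatin libraries it was the lower, with ratios of 0.487, 0.450 and 0.439.

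**Figure D3:**
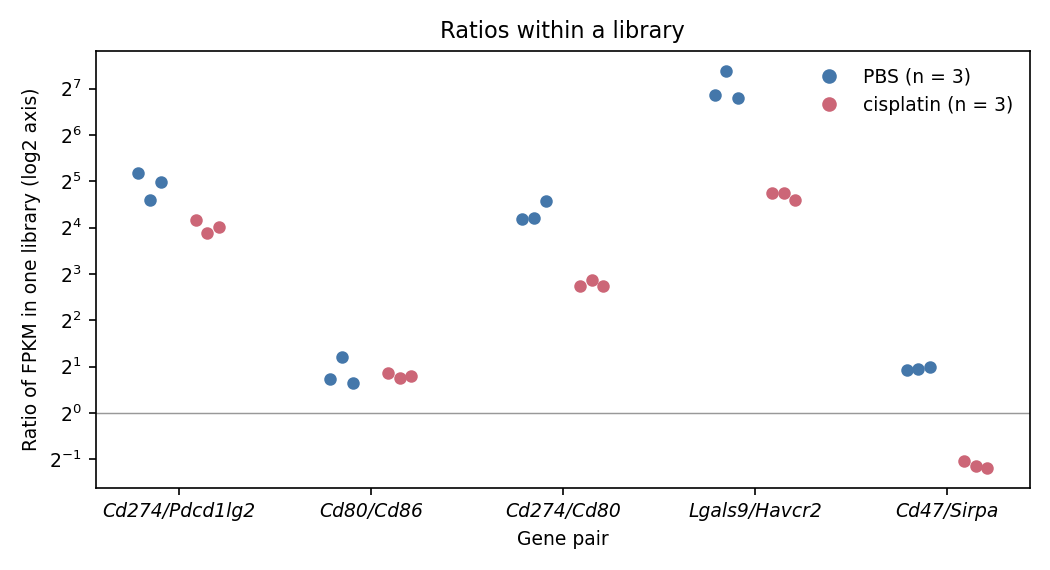
Ratio of the FPKM of 2 genes within a library, on a log2 axis, for 5 gene pairs, with 3 PBS libraries in blue and 3 cisplatin libraries in red and a line at a ratio of 1. In 4 pairs all cisplatin points lie below all PBS points, Cd80/Cd86 overlaps, and Cd47/Sirpa crosses 1.

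For the ratios, the groups were set against each other with a two-sided exact permutation test, whose smallest possible p with 3 against 3 is 0.1, so that 0.05 could not be reached. The log2 ratio differed, cisplatin minus PBS, by -0.90 (SE 0.19) for Cd274/Pdcd1lg2, -1.55 (SE 0.13) for Cd274/Cd80, whose proteins are known to bind each other on 1 cell, -2.33 (SE 0.19) for Lgals9/Havcr2 and -2.09 (SE 0.051) for Cd47/Sirpa. Each of these 4 gave an exact permutation p = 0.1, and an adjusted p = 0.125 over the 5 pairs. For Cd80/Cd86 the difference was -0.058 (SE 0.18, exact permutation p = 1), and it was 0.11 without PBS replicate 2 and 0.045 with a pseudocount of 1.

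Genes with a known role in PD-L1 transcription or protein stability were tested beside the ligands. Of 25 regulators, 16 fell and 4 rose at the adjusted p, beside 35.1% and 32.9% of all tested genes. Past both thresholds were 4 of the 25, all lower, beside 11.3% of all tested genes lower and 15.9% in either direction. The list had a median log2 fold change of -0.23, and 6 of the 25 changed sign with scaling by the Y-linked genes. Irf1, the interferon-induced factor that acts on the Cd274 promoter, was at 55.4, 55.1 and 57.4 FPKM with PBS and at 21.9, 22.96 and 21.99 FPKM with cisplatin (log2 fold change -1.29, adjusted p = 2.87e-07). Stat2, a component of the interferon-activated factor ISGF3, had a log2 fold change of -1.92 (adjusted p = 1.01e-07), larger in size than that of Cd274. Jak2, which encodes a kinase of the interferon gamma receptor and lies on chromosome 19 with Cd274, was at 58.6, 63.4 and 60.3 FPKM with PBS and at 45.5, 43.2 and 43.5 FPKM with cisplatin (log2 fold change -0.45, adjusted p = 7.48e-05). Of the receptor genes, Ifngr2 had a log2 fold change of -0.17 (adjusted p = 0.00726) and Ifngr1 one of 0.030 (adjusted p = 0.630). When scaled by the Y-linked genes these were -1.43 for Jak2, -1.14 for Ifngr2 and -0.94 for Ifngr1 (adjusted p = 2.27e-06), where the median of all genes was -0.83. The pair of membrane proteins that protect PD-L1 from degradation diverged. Cmtm6 had a log2 fold change of 0.28 (adjusted p = 0.000281), which turned to -0.70 with scaling by the Y-linked genes, and Cmtm4 had one of -1.49 (adjusted p = 1.55e-06).

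Other proteins by which antigen-presenting or tumour cells act on T cells changed in both directions. Of 24 listed, 17 were tested, of which 9 rose and 6 fell (median log2 fold change 0.34), and 6 changed sign with scaling by the Y-linked genes. Past both thresholds were 5 lower and 2 higher, where 11.3% and 4.67% of all tested genes were, and 35.1% of all tested genes fell and 32.9% rose at the adjusted p. The largest falls were those of Ildr2, a B7-like protein, from 41.5, 46.3 and 47.9 FPKM to 3.88, 3.91 and 3.46 FPKM (log2 fold change -3.28, limma, adjusted p = 1.04e-07), and of Nectin2, a ligand of TIGIT and CD226, from 50.7, 46.2 and 48.9 FPKM to 5.45, 6.43 and 6.79 FPKM (log2 fold change -2.78, adjusted p = 2.70e-07). Pvr, the other ligand of these receptors, had a log2 fold change of -1.26 (adjusted p = 2.02e-06), the non-classical class I gene H2-T23 of -1.18 (adjusted p = 7.24e-07) and the 4-1BB ligand gene Tnfsf9 of -1.06 (adjusted p = 4.02e-05). Higher were Cd1d1, which presents lipids to NKT cells (log2 fold change 1.48, adjusted p = 1.14e-05), and Cd48, the ligand of CD2 and 2B4 (log2 fold change 1.12, adjusted p = 6.34e-06). With scaling by the Y-linked genes Cd48 was at 0.15 and did not pass the test (adjusted p = 0.0992), and Cd1d1 was at 0.70. Tnfsf9 and Cd48 were named after their values were seen.

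**Figure D4:**
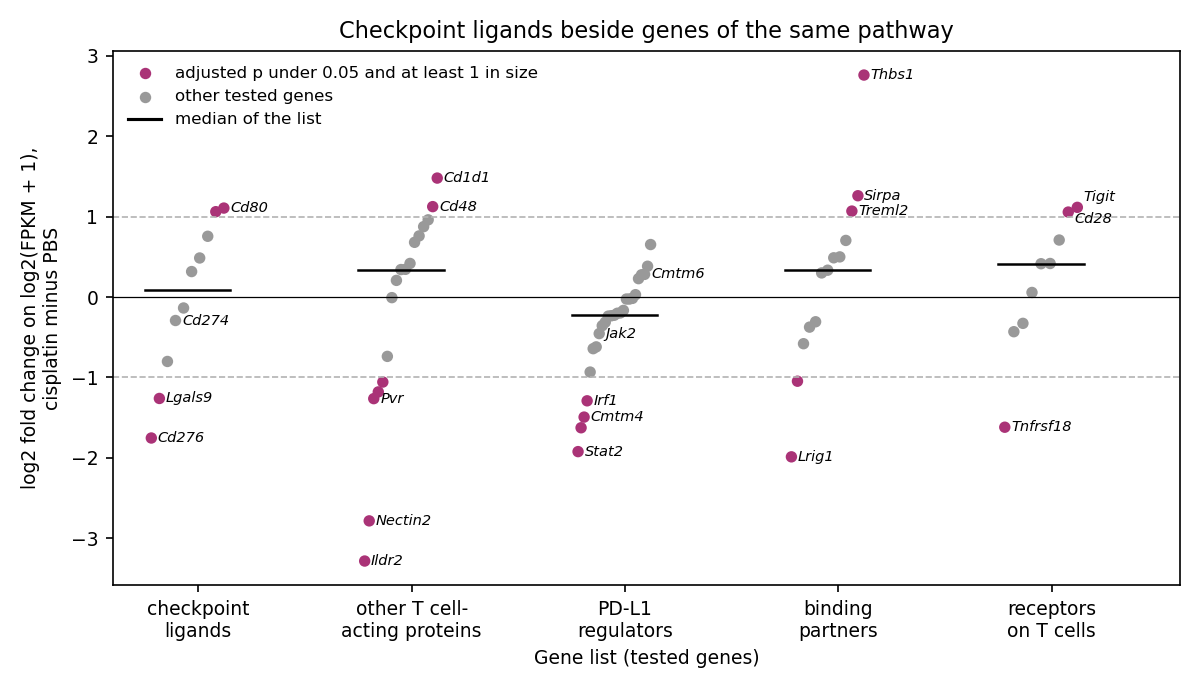
Log2 fold change (cisplatin minus PBS, log2(FPKM + 1) scale) of the tested genes of 5 lists, with genes past both thresholds in purple, other tested genes in grey and the list median as a bar. Checkpoint ligands spread from -1.75 to 1.11 around a median of 0.090, and the regulators have no gene past both thresholds above 0.

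Among 13 tested of 17 listed binding partners outside T cells, 8 rose and 5 fell (median log2 fold change 0.33), where 32.9% and 35.1% of all tested genes did, and 5 changed sign with scaling by the Y-linked genes, under which Sirpa was at 0.27 and Treml2 at 0.11, the latter no longer passing the test (adjusted p = 0.122). Past both thresholds, where 4.67% of all tested genes were higher and 11.3% lower, were 3 higher, the thrombospondin gene Thbs1, whose product binds CD47 (log2 fold change 2.76, limma, adjusted p = 3.02e-08), Sirpa, and Treml2, a proposed B7-H3 receptor (log2 fold change 1.07, adjusted p = 1.09e-06), and 2 lower, Lrig1, a proposed VISTA partner (log2 fold change -1.99, adjusted p = 4.83e-07), and P4hb, a disulfide isomerase that galectin-9 binds (log2 fold change -1.05, adjusted p = 5.97e-07). Thbs1 went from 134, 142 and 134 FPKM with PBS to 926, 935 and 928 FPKM with cisplatin.

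Several receptors that these ligands meet on T cells were low, among them those of PD-1, CTLA-4 and ICOS. Of 15 receptor genes listed, 9 were tested, of which 5 rose and 3 fell (32.9% and 35.1% of all tested genes), and 4 changed sign with scaling by the Y-linked genes. Pdcd1, which encodes PD-1, was at 1.26, 0.898 and 1.37 FPKM with PBS and at 0.518, 0.852 and 0.722 FPKM with cisplatin, on 17 to 43 reads per library. Ctla4 did not exceed 0.716 FPKM and Icos 0.302 FPKM in any library, and the T cell marker Cd3e lay between 0.174 and 0.418 FPKM. Other T and NK cell markers were higher, among them Trac (1.58 to 2.89 FPKM) and Trbc2 (2.04 to 3.31 FPKM), both named after their values were seen. Of the 12 markers 5 were tested, of which 3 rose and 1 fell, beside 32.9% and 35.1% of all tested genes, and 4 of the 5 changed sign when scaled by the Y-linked genes. The highest of the 15 receptor genes was Btla, which encodes an inhibitory receptor that B cells also carry and was named after its values were seen. It was at 11.2, 10.2 and 9.99 FPKM with PBS and at 19.1, 16.9 and 17.3 FPKM with cisplatin. Its log2 fold change of 0.71 (limma, adjusted p = 7.06e-05) turned to -0.22 with scaling by the Y-linked genes. Cd28 was at 0.434, 0.577 and 0.432 FPKM with PBS and at 2.06, 2.03 and 2.14 FPKM with cisplatin (log2 fold change 1.06, limma, adjusted p = 5.16e-05). Tigit had a log2 fold change of 1.12 (adjusted p = 0.00335) on 5 to 50 reads. Both were short of the fold threshold with scaling by the Y-linked genes, Cd28 at 0.56 and Tigit at 0.62. Tnfrsf18, which encodes GITR, had a log2 fold change of -1.62 (adjusted p = 0.000139) on 19 to 154 reads.

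Among the genes whose pattern over the 6 libraries was nearest to that of Cd274, by Euclidean distance between log2(FPKM + 1) values with each gene's mean removed, were Sdf4 (distance 0.034) and Bag1 (0.048). For Cd276 they were Tmem151a (0.082), Ltbp1 (0.12) and Lrrc75a (0.13).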

How the data were processed

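RNA-seq of 6 BMDM libraries, 3 per group, was read from 1 table. The authors deposited FPKM values for 54532 genes with coordinates and lengths. The submitters' processing notes name fastp, HISAT2 2.0.5, featureCounts 1.5.0-p3 and mm10, whereas the study's methods name LifeScope for alignment and counting, and which of them made the table, and whether strand was used, is not given in the sources used here. Coordinates are those of the table, which for 9 of the 10 members equalled those of GENCODE M21 (GRCm38). Promoter windows are from RefSeq (GRCm38.p6).

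FPKM are not counts, so log2(FPKM + 1) was fitted with limma 3.58.1 in R 4.3.3 (lmFit, eBayes with a trend), with group as the only term, over the 13441 genes with at least 1 FPKM in at least 3 libraries. Both thresholds, an adjusted p of 0.05 and a log2 fold change of 1, follow the study's methods. Whole reads were recovered from FPKM times length (100% of values under 200 reads lay within 0.05 of a whole number), and they cover counting error only. The library totals behind the FPKM were 97.4% to 98.7% of the recovered reads with PBS and 103.7% to 104.1% with cisplatin. Scaling by the recovered totals was 1 of the 5 alternative scalings. Ratios were tested with SciPy 1.17.1. The main fit was tested on simulated data, whereas the alternative settings and the test of ratios were not.

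The members and lists were chosen with earlier results of these data known. Named were the members, the 5 largest changes past both thresholds of each companion list, a set of marker, receptor and interferon genes, and the 3 nearest patterns of Cd274 and of the member that changed most. Some single-gene results of this rule are not reported here. Alternatives were another pseudocount and filter, 5 scalings, eBayes without a trend, voom, protein-coding genes only, a replicate block and leaving out each library. Equal replicate numbers are not stated to mark shared preparation, so the block was an alternative.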

Additional observations from a re-analysis of the deposited data

How the results depend on the processing

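Each member was refitted under 18 settings (17 for Pdcd1lg2 and Havcr2, which a filter of 5 FPKM removed), and counting each member and setting separately, 172 fits kept the direction and the side of the adjusted p threshold, 2 became weaker, 2 stronger and 2 reversed. Scaling by the 4 Y-linked genes accounted for both reversals, Pdcd1lg2 at -0.32 and Icosl at -0.60, for both weaker results, Cd86 and Havcr2, and for 1 of the 2 stronger ones, Vsir at -1.11, the other being Vsir without PBS replicate 2. Under it the median over all genes was -0.83 (0.10 with quantile normalisation). It moved the members past both thresholds from 2 higher and 2 lower to 0 higher and 5 lower, those at the adjusted p alone from 5 higher and 4 lower to 1 higher and 7 lower, and all called genes from 628 higher and 1514 lower to 85 and 5181, so that 1.61% of calls were higher in place of 29.3%. Relative to that median, Pdcd1lg2 lay 0.51 and Icosl 0.24 higher. The cause was not tested. A filter of 5 FPKM, which left 8 members, gave 3 higher at the adjusted p alone. A pseudocount of 0.1 called 973 genes higher and limma voom 1227, with 39.7% of calls higher (39.3% with quantile normalisation), and each called 3 members higher. Leaving out each library in turn gave 1 to 2 members called higher, the lower value without PBS replicate 2, and 4 to 5 lower at the adjusted p alone, the higher value without that library, where Vsir passed. A replicate block in the fit gave 625 genes called higher and 1515 lower, and no member's call changed. The deviations of same-numbered libraries correlated at -0.10, -0.086 and -0.024. The Cd80/Cd86 log2 ratio, whose groups overlapped, changed sign to 0.045 with a pseudocount of 1 and ranged from -0.17 to 0.11 when a library was left out, the highest value without PBS replicate 2. The other 4 ratios kept their direction.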
